A study of Mus musculus with 8 samples.

Results

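Tbp, Nono, Rpl13a, Ppia, Hsp90ab1, Actb and Tuba1b are 7 of the 15 genes that carry a recognisable accession on a mouse expression array whose 60915 probes cover mRNAs and long noncoding RNAs. They were taken by their probe numbers and RefSeq accessions as the genes of transcription, translation, protein folding and cytoskeleton, by a rule that uses no measured value. The choice was made with earlier results of these data known. The accessions on the array are NM_013684 (Tbp), NM_023144 (Nono), NM_009438 (Rpl13a), NM_008907 (Ppia), NM_008302 (Hsp90ab1), NM_007393 (Actb) and NM_011654 (Tuba1b). Each has 20 spots of 1 probe on every array, or 140 spots in all for the 7. RNA was measured in 8 male DBA/1 mice of 5 weeks of age, 1 array per mouse. The SUDEP group holds 4 mice of a model of sudden unexpected death in epilepsy, and the control group 4 mice of the same strain that the labels call normal. The seizure stimulus, the time of tissue collection, and any drug given are not stated in the sources used here. The labels give the tissue as brain and the series text as brainstem; this could not be checked against markers, since the array files pair no marker gene with a probe. In bulk tissue, fewer cells of a type and less RNA per cell cannot be told apart.

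All 7 genes serve functions that nearly every cell needs, and their transcripts are widely used as references in expression studies. Tbp encodes the TATA-binding protein, which helps to place RNA polymerase at promoters. Nono encodes a nuclear RNA-binding protein of paraspeckles that acts in transcription, splicing and DNA repair. Rpl13a encodes a protein of the large ribosomal subunit. Ppia (cyclophilin A, a prolyl isomerase) and Hsp90ab1 (the constitutive HSP90 beta chaperone) serve protein folding. Actb encodes beta-actin, the unit of actin filaments, and Tuba1b an alpha-tubulin, a unit of microtubules, which are abundant in axons and dendrites.

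The sequences before the start sites are shown for the 3 genes whose single-mouse values are described most closely below: Nono, with the largest difference between groups, and Ppia and Tuba1b, in each of which 1 SUDEP mouse lay apart from the others. They are the 250 bases before the RefSeq start in GRCm38.p6, read 5′ to 3′ on the gene's strand. Capitals mark the letters of a CCAAT box, of a TATA box, searched as TATAAA, or of a GC box, searched as GGGCGG, on either strand; none of these motifs overlap in the windows shown.
Nono (chrX:101429401-101429650, plus strand): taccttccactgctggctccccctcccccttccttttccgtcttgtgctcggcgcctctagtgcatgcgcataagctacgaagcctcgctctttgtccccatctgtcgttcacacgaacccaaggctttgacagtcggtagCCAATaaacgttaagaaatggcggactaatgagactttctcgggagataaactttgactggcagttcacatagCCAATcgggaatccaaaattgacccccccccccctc
Ppia (chr11:6415617-6415866, plus strand): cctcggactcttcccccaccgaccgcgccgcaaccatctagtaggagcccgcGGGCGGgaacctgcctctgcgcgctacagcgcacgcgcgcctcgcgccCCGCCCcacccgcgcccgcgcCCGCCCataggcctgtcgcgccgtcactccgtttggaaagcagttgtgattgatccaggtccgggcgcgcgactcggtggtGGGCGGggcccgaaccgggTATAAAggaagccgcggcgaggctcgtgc
Tuba1b (chr15:98934391-98934640, minus strand): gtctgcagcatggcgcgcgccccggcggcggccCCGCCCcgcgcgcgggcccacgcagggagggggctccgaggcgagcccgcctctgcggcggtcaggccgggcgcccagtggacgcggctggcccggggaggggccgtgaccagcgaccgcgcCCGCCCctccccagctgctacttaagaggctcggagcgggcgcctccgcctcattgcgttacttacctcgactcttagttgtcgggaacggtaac
Ppia had a TATA box 29 bases before its start and 4 GC boxes. Nono had neither, but 2 CCAAT boxes, the nearer beginning 36 bases before the start. Tuba1b had 2 GC boxes and neither of the other motifs. The same windows were listed for 5 of the 7 genes (not for Hsp90ab1 and Actb): 1 of the 5 held a TATA box, 2 a CCAAT box and 4 a GC box. Over all 32851 windows of that length in the RefSeq table the shares were 12.4%, 33.8% and 32.7%. The windows of Ppia and Tuba1b were 72.4% and 75.6% G or C, that of Nono 53.2%. These matches describe the sequence only, and no measurement here bears on binding.

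No difference between SUDEP and control mice was detected in any of the 7 genes. Their levels are given as log2 intensity above the 75th percentile of the same array, so that 0 is that percentile and 1 unit is a doubling; levels of different genes are not compared, as probes differ in their response. Of the 7, 0 passed an adjusted p under 0.05 by limma over all tested probes, 0 passed at an unadjusted p under 0.05, and in 0 did the groups lie fully apart. Among all 49297 probes tested, 0.0649% passed the adjusted threshold, 8.13% the unadjusted one and in 4.78% the groups did not overlap. The median log2 difference (SUDEP minus control) was 0.062 over the 7 genes and 0.0081 over all tested probes, with the middle 50% of probes between -0.10 and 0.11. Of the 7 differences 6 were above 0 and 1, that of Hsp90ab1, below; without scaling between arrays those of Tbp, Rpl13a, Ppia and Actb were also below 0. In all 7 genes the 95% interval of the difference lay within a 2-fold change in either direction, and in 6, all but Nono, within a 1.5-fold change. With 4 mice a group, the smallest p that the exact permutation test can give is 0.0286.

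**Figure D1:**
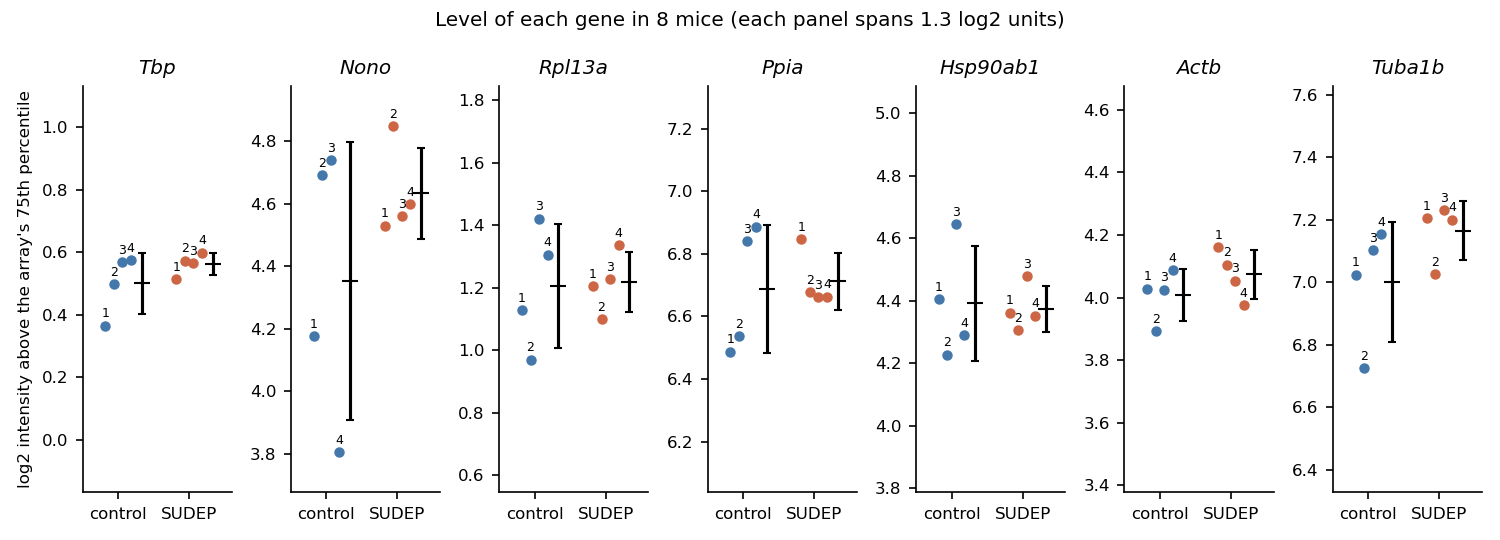
Level of each of the 7 genes in each mouse, as log2 intensity above the array's 75th percentile. Points are mice, numbered as in the labels, and black marks are the mean and SD of 4 mice. The groups overlap in every panel, and Nono spans the widest range in log2 units, from 3.81 in control 4 to 4.85 in SUDEP 2.

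Of the transcription genes, Tbp had the lowest residual SD of the 7 as a mean of 20 spots scaled to the 75th percentile; over single spots that of Actb was lower, with medians of 0.091 against 0.097. Its level was 0.36, 0.50, 0.57 and 0.57 in control 1 to 4 and 0.51, 0.57, 0.57 and 0.60 in SUDEP 1 to 4. Control 1 was the lowest of the 8, and the other 7 mice lay between 0.50 and 0.60. Control mice averaged 0.50 ± 0.097 and SUDEP mice 0.56 ± 0.036 (SD, 4 mice a group). The log2 difference was 0.062 (SE 0.092), a fold of 1.04 with a 95% interval of 0.907 to 1.20 (limma adjusted p = 0.907; two-sided exact permutation p = 0.286). Its mean processed intensity was 503 to 641 over the 8 arrays, and all of its spots were well above background.

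Nono, the other nuclear gene, varied most. Its level was 4.18, 4.69, 4.74 and 3.81 in control 1 to 4, against 4.53, 4.85, 4.56 and 4.60 in SUDEP 1 to 4. Control 1 and control 4 lay below all SUDEP mice, while control 2 and control 3 lay above 3 of the 4. The range over the 8 mice was 1.04 log2 units, or about a doubling, and processed intensities ran from 4973 in control 4 to 11747 in control 2. Control mice averaged 4.35 ± 0.45 and SUDEP mice 4.63 ± 0.15 (SD, 4 mice a group). They differed by 0.28 log2 units (SE 0.20). The fold was 1.21 with a 95% interval of 0.899 to 1.64 (limma adjusted p = 0.779; exact permutation p = 0.343). Without control 4 the difference was 0.098 (limma adjusted p = 0.869), and without control 3 it was 0.41 (adjusted p = 0.503).

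The SD over the spots of Nono within an array was 0.025 to 0.12 log2 units. The SD between arrays was 0.45 in control and 0.15 in SUDEP. Each mouse has 1 array, so differences between mice and between arrays cannot be told apart. Of its 20 spots, 14 were measured on all 8 arrays. Control 4 was the lowest control mouse in each of the 14. SUDEP 2 was the highest SUDEP mouse in all 17 spots measured across that group. The log2 difference between groups was positive in each of the 14 spots, between 0.16 and 0.36, but in 0 of them did the groups lie apart. Spots share the mouse, the RNA and the array, so their number adds no evidence about the groups. The residual SD of Nono was above that of 88.4% of tested probes. The median over its single spots, which compares like with like since most other probes have 1 spot, was above 90.2%.

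**Figure D2:**
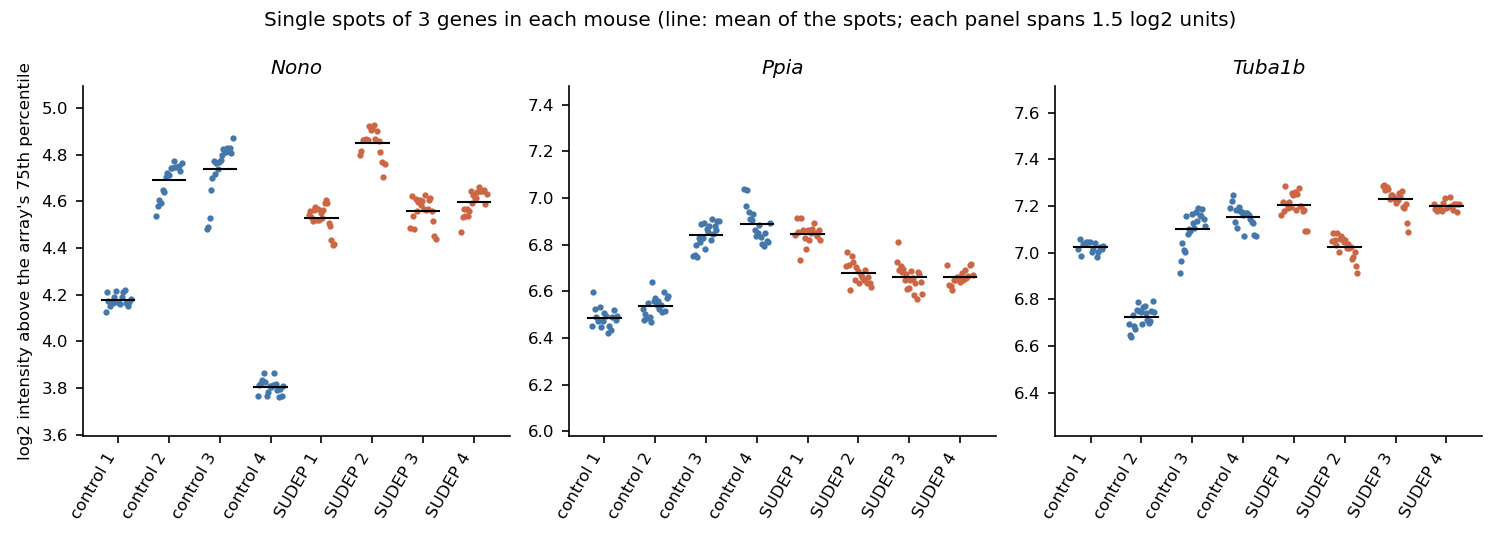
Single spots of Nono, Ppia and Tuba1b in each mouse, as log2 intensity above the array's 75th percentile, ordered within a mouse by place on the array; the line is the mean of the spots. Nono spots centre at 3.81 in control 4 and at 4.85 in SUDEP 2; Ppia in SUDEP 2, 3 and 4 and Tuba1b in SUDEP 1, 3 and 4 have spots that overlap from mouse to mouse.

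Rpl13a, for the ribosome, had the smallest difference. It was at 1.13, 0.97, 1.42 and 1.31 in control 1 to 4 and at 1.21, 1.1, 1.23 and 1.34 in SUDEP 1 to 4. All 4 SUDEP mice lay inside the range of the controls. Control mice averaged 1.21 ± 0.20 and SUDEP mice 1.22 ± 0.097 (SD, 4 mice a group). The log2 difference was 0.011 (SE 0.12), a fold of 1.01 with a 95% interval of 0.841 to 1.21 (limma adjusted p = 0.991; exact permutation p = 0.914). Control 2 was the lowest control mouse and SUDEP 2 the lowest SUDEP mouse in all 19 spots measured across each group.

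Of the folding genes, Ppia was at 6.49, 6.54, 6.84 and 6.89 in control 1 to 4. It was at 6.85, 6.68, 6.66 and 6.66 in SUDEP 1 to 4. Control 1 and 2 were the lowest of the 8; SUDEP 2, 3 and 4 came next, and SUDEP 1 lay between control 3 and control 4. Control mice averaged 6.69 ± 0.20 and SUDEP mice 6.71 ± 0.090 (SD, 4 mice a group). The log2 difference was 0.024 (SE 0.12), a fold of 1.02 with a 95% interval of 0.847 to 1.22 (limma adjusted p = 0.979; exact permutation p = 0.914). SUDEP 1 was the highest SUDEP mouse in all 15 spots measured across that group. The RefSeq gene table lists 60 pseudogenes named for Ppia, 1 each for Rpl13a and Actb, and 0 for the other 4 genes. The probe sequences were not used here, so whether transcripts of such copies, or of close relatives of Actb and Tuba1b, add to these signals was not tested.

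The order of the mice in Ppia depended on the scaling. Before any scaling between arrays its mean processed intensity was 41116, 42240, 41272 and 42098 in control 1 to 4, an SD of 0.020 log2 units. In SUDEP 1 to 4 it was 40557, 38617, 37065 and 36211. Unscaled, every control mouse lay above every SUDEP mouse, and the log2 difference was -0.13 (SE 0.11, limma adjusted p = 0.658). The share of all probes with groups apart was not counted without scaling, so how unusual this is was not tested. In each of the other genes of the set the unscaled groups overlapped. Control 1 and 2 had the highest 75th percentiles of intensity, 458 and 455, against 352 to 377 on the other 6 arrays. Dividing by it lowered Ppia in control 1 and 2 relative to the rest, and the scaled groups overlapped. The overlap did not rest on control 1 and 2 alone, since scaled SUDEP 1 (6.847) also lay above control 3 (6.841). Leaving out the scaling moved the log2 difference of all tested probes alike, by -0.15 log2 units, and that of Ppia from 0.024 to -0.13.

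Hsp90ab1 was at 4.40, 4.23, 4.65 and 4.29 in control 1 to 4. It was at 4.36, 4.31, 4.48 and 4.35 in SUDEP 1 to 4. All SUDEP mice lay within the range of the controls, and control 3 was the highest of the controls in each of its 20 spots. Control mice averaged 4.39 ± 0.18 and SUDEP mice 4.37 ± 0.073 (SD, 4 mice a group). The log2 difference was -0.017 (SE 0.11), a fold of 0.988 with a 95% interval of 0.832 to 1.17 (limma adjusted p = 0.984; exact permutation p = 0.886). It was the only one of the 7 with a value below 0 under this scaling. With quantile scaling the difference was 0.020. Without scaling it was -0.17 (SE 0.14, limma adjusted p = 0.642), and with scaling by the mean of the 7 genes -0.10 (SE 0.10, adjusted p = 0.844). That mean includes Hsp90ab1 itself, and scaling by it makes the 7 differences average 0.

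Of the cytoskeleton genes, Actb was at 4.03, 3.89, 4.02 and 4.09 in control 1 to 4. It was at 4.16, 4.11, 4.05 and 3.98 in SUDEP 1 to 4. SUDEP 1 and 2 lay above all controls, and SUDEP 4 below 3 of the 4. Control mice averaged 4.01 ± 0.082 and SUDEP mice 4.07 ± 0.078 (SD, 4 mice a group). The log2 difference was 0.065 (SE 0.093), a fold of 1.05 with a 95% interval of 0.907 to 1.21 (limma adjusted p = 0.900; exact permutation p = 0.314). The difference was positive in all 13 of the spots measured on every array, between 0.037 and 0.083. Spots share the mice and the arrays, so their common sign adds no evidence about the groups. Without scaling between arrays the difference of Actb was -0.089 (SE 0.13, limma adjusted p = 0.780).

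Tuba1b had the second largest difference, after Nono. It was at 7.02, 6.72, 7.10 and 7.15 in control 1 to 4. It was at 7.20, 7.03, 7.23 and 7.20 in SUDEP 1 to 4. SUDEP 1, 3 and 4 lay above all controls and SUDEP 2 among them; control 2 was the lowest mouse. Control mice averaged 7.0 ± 0.19 and SUDEP mice 7.16 ± 0.094 (SD, 4 mice a group). SUDEP minus control was 0.16 log2 units (SE 0.12), a fold of 1.12 with a 95% interval of 0.938 to 1.34 (limma adjusted p = 0.779; exact permutation p = 0.143). Without control 2 the difference was 0.072 (limma adjusted p = 0.875), and unscaled it was 0.0099 (adjusted p = 0.978). Control 2 and SUDEP 2 were the lowest of their groups in all 16 and all 17 spots measured across the group.

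**Figure D3:**
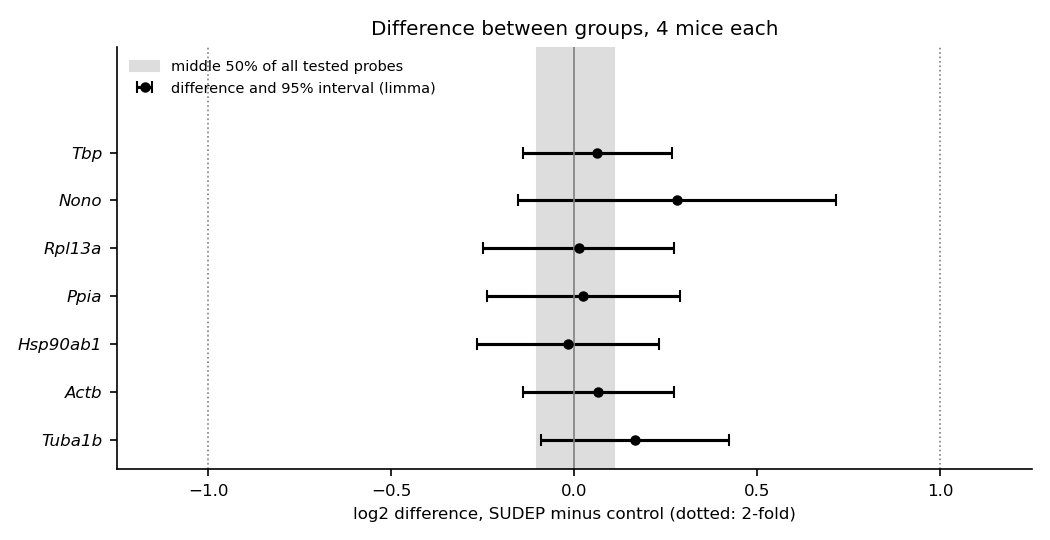
Difference between the groups for each gene, SUDEP minus control in log2 units, with the 95% interval from limma; the grey band holds the middle 50% of all tested probes and dotted lines mark a 2-fold change. Every interval includes 0 and lies within the dotted lines; that of Nono is the widest, reaching 0.72.

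In order of the log2 difference, the genes ran Nono, Tuba1b, Actb, Tbp, Ppia, Rpl13a and Hsp90ab1. Each gene differed from its neighbour in this order by less than the larger of their 2 SEs. These SEs are not those of the gaps, since the genes share the arrays, and whether neighbours differ was not tested. The absolute difference of Nono was larger than that of 87.6% of tested probes and that of Tuba1b larger than 68.7%. For Actb and Tbp the shares were 32.8% and 31.2%, and for Ppia, Hsp90ab1 and Rpl13a 12.4%, 8.89% and 5.90%. Between-mouse residual SDs were 0.073 for Tbp and 0.080 for Actb, lower than in all but 2.61% and 3.94% of tested probes, where an average over 20 spots is set against single spots. Taken over single spots, as for other probes, the shares for Tbp and Actb were 8.42% and 6.50%.

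Ratios between genes of one array do not depend on a scaling that shifts all log2 values of an array alike, such as that by the 75th percentile; quantile and loess scaling can alter them. The SD over the 8 mice of the log2 ratio was computed for all 21 pairs. In the 15 pairs without Nono it was 0.10 to 0.17, and in the 6 pairs with Nono 0.33 (with Tbp) to 0.41 (with Tuba1b). Within groups, the pairs with Nono had SDs of 0.41 to 0.57 in control and 0.14 to 0.24 in SUDEP. Those without Nono had 0.096 to 0.22 in control and 0.058 to 0.16 in SUDEP. Over the 8 mice, the steadiest ratio was that of Tbp to Actb, with an SD of 0.10 and a group difference of -0.0035. The next were Rpl13a to Tuba1b and Rpl13a to Hsp90ab1, both at 0.11. In 0 of the 21 pairs did the groups lie apart. Among the pairs without Nono, the ratio of Hsp90ab1 to Tuba1b differed most between the groups, by -0.18 log2 units (SUDEP minus control).

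**Figure D4:**
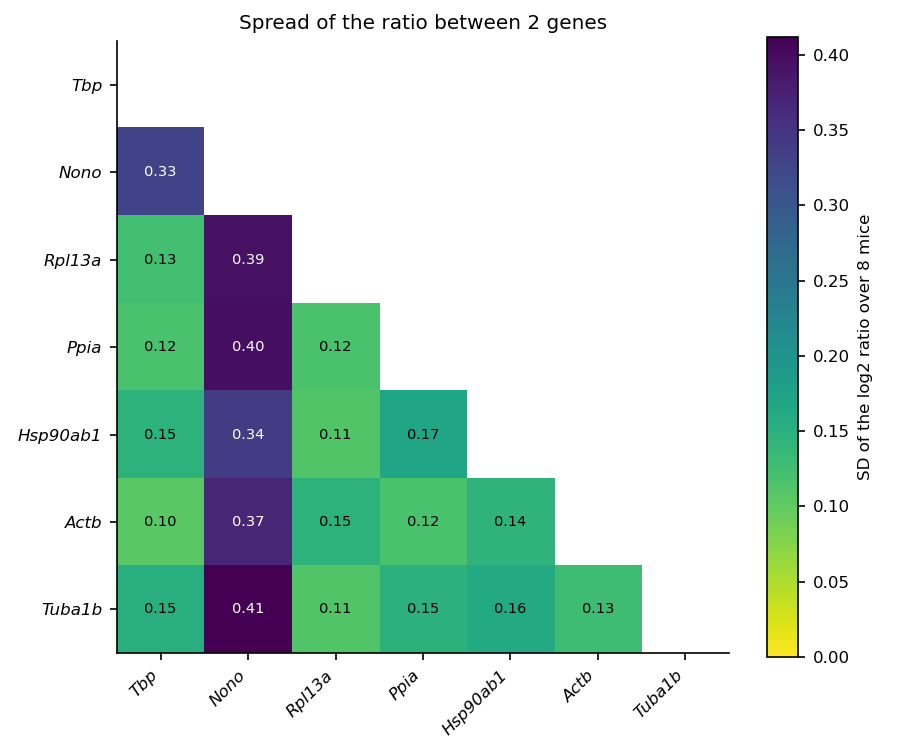
SD over the 8 mice of the log2 ratio of each pair of genes; darker cells vary more. The 6 cells of Nono hold 0.33 to 0.41, the other 15 pairs 0.10 to 0.17.

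The likeness of each gene to the other 14 named genes was measured the same way, over 8 mice. Tuba1b and Rpl13a were each closest to Hprt, a purine salvage enzyme, with SDs of the log2 ratio of 0.052 and 0.075. Ppia was closest to Gapdh, a glycolytic enzyme, at 0.080. Hsp90ab1 was closest to G6pd2, a glucose-6-phosphate dehydrogenase, at 0.099. Tbp and Actb were closest to each other, at 0.10. The nearest gene to Nono was also G6pd2, but at 0.28. The gene farthest from 6 of the 7 was B2m, the light chain of MHC class I, at 0.45 to 0.51; the gene farthest from Tuba1b was Nono.

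The control mice were more spread than the SUDEP mice in all 7 genes with scaling by the 75th percentile, and in 6 of the 7 without scaling or with median scaling. The SD of the 4 control mice was 1.05 times that of the SUDEP mice in Actb, 2.28 times in Ppia, 2.72 times in Tbp and 3.06 times in Nono, with a median of 2.28. Over all tested probes with a value on every array, 68.2% had the larger SD in control, with a median ratio of 1.38. The count was 7 of 7 with quantile scaling or with scaling by the mean of the 7 genes. The exception was Actb with median scaling, with SDs of 0.073 in control and 0.11 in SUDEP, and Ppia without scaling, with 0.020 and 0.072. Without scaling, 80.4% of all probes had the larger SD in control. Control 1 and 2 were also the brightest arrays, and the part of that in this spread was not tested. The labels and headers give no batch that splits the control mice, and all arrays have 1 scan time. The array codes in the headers have a first number that goes with the group and a second that is the replicate number. What the first number stands for is not stated. A difference in level or spread between the groups cannot be told apart from it.

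**Figure D5:**
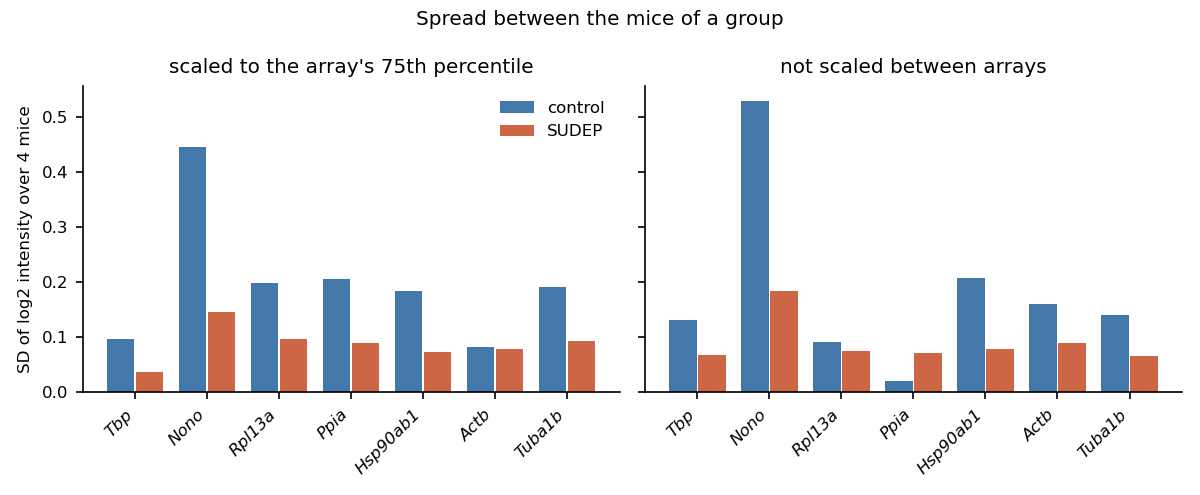
SD of the log2 intensity over the 4 mice of each group, scaled to the array's 75th percentile (left) or not scaled between arrays (right). Scaled, the control bar is the taller in all 7 genes; unscaled, it is the taller in all but Ppia, where control is at 0.020 and SUDEP at 0.072.

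The 20 spots of a gene also showed how far place on the array matters. Each gene's mean on an array was subtracted from its spots, and the last 96 of the 384 rows were set against the first 96. The difference, last minus first, was 0.12 log2 units in control 3, 0.067 in SUDEP 4 and 0.057 in control 2. In these 3 arrays all 7 genes had that direction. It was -0.11 in control 4, -0.069 in SUDEP 1 and -0.087 in SUDEP 2, again in all 7 genes. In control 1 and SUDEP 3 it was -0.066 and -0.064, with 2 genes and 1 gene in the other direction. Both directions occurred in both groups. These slopes are larger than the group differences of Rpl13a, Ppia and Hsp90ab1, and they average out in part over spots that are spread across the rows. A probe with 1 spot has no such average. Of the 1120 spot values of the 7 genes, 47 were marked as outliers and left out, at least 16 spots of each gene were kept on each array, 1120 were well above background and 0 were saturated.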

How the data were processed

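Arrays of 4 SUDEP and 4 control mice were grouped by their titles; the labels call them biological replicates. The submitters' processing notes name Agilent Feature Extraction 11.0.1.1 as the image software. The authors deposited its spot intensity after background subtraction and before any scaling between arrays; per the file headers, spatial detrending statistics were computed. The authors also deposited a table of log2 values of the same arrays, with an unstated normalization; it holds 0 of the 7 genes and served only for counts of all probes. Its column medians were 6.44 on all arrays, and each column correlated with its own array at r = 0.995 to 1.00.

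From the scanner files, spots flagged as non-uniform or population outliers were left out, spots of a probe were averaged as log2 intensity, and each array's 75th percentile was subtracted. The 49297 probes that at least 4 of the 8 arrays measured well above background were fitted with limma 3.58.1 in R 4.3.3 with group as the only term, two-sided, with Benjamini-Hochberg adjustment over all of them. Control and negative probes were left out. The fit was tested on simulated data. Single values were also compared by the exact permutation test. With 8 arrays, their number sets the precision.

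Accessions, without versions, matched a RefSeq gene table of GRCm38.p6 for all 15 reference probes; other probes are not named here, so the lists of companion genes and cell type markers could not be tested. The array design names mm9, and no position was taken from it. The genes named are the 7 members and, by the smallest SD of the log2 ratio, the nearest of the other reference genes; the farthest were added after their values were seen. Members, lists and alternatives were chosen with earlier results of these data known. The numbers of the labels were checked as pairs: deviations of same-numbered mice correlated at -0.073, 0.30, -0.0048 and 0.16 for numbers 1 to 4, and 4 of 8 arrays correlated best with their own number, and the mice were treated as unpaired. Alternatives were other scalings, normexp correction with an offset of 50 on the median intensity, other filters, spot summaries and variance models, a covariate, the replicate block, and arrays left out. Figures were drawn with matplotlib 3.10.9.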

Additional observations from a re-analysis of the deposited data

Results flagged for a closer look

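In each group of 4 mice the highest and lowest values were set against the others for the 7 genes and 2 measures of array brightness, 18 groups in all; in 2 of them 1 mouse stood apart, where chance flags about 1 in 20 groups. The Ppia value of SUDEP 1 was 6.85, where SUDEP 2 to 4 ran from 6.66 to 6.68, a gap of 0.918 of the range. The Tuba1b value of SUDEP 2 was 7.03, where its 3 group mates ran from 7.20 to 7.23, a gap of 0.853 of the range. Both mice kept that place under 4 other scalings, but the gap of SUDEP 1 was then 0.432 (no scaling) to 0.801 of the range and that of SUDEP 2 was 0.471 (quantile scaling) to 0.823, each below the critical value for 4 samples.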

How the results depend on the processing

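In all 24 alternatives that hold the 7 genes, 0 of them passed the adjusted threshold of 0.05 by limma or the unmoderated test, and 0 passed without adjustment. Scaling by the mean of the 7 genes makes their 7 differences average 0, so some signs must turn under it by arithmetic alone. Nono (0.098 to 0.41) and Tuba1b (0.0099 to 0.22) kept a positive log2 difference in all 24 alternatives. The sign turned in others: with scaling by the mean of the 7 genes for Tbp (-0.022), Rpl13a (-0.073), Ppia (-0.060) and Actb (-0.019); without scaling for Tbp (-0.092), Rpl13a (-0.14), Ppia (-0.13) and Actb (-0.089); with quantile scaling for Hsp90ab1 (0.020); with normexp for Ppia (-0.020); with array weights for Rpl13a (-0.018) and Ppia (-0.014); with the 75th percentile as a covariate for Rpl13a (-0.13) and Ppia (-0.13); and without control 1 and 2 for Tbp (-0.0079), Rpl13a (-0.15) and Ppia (-0.15). With 1 array left out the ranges were -0.068 to 0.083 for Rpl13a, -0.043 to 0.090 for Ppia and -0.072 to 0.068 for Hsp90ab1; Rpl13a was -0.015 and -0.068 without control 1 and 2 and -0.028 without SUDEP 4, Ppia -0.043 and -0.026 without control 1 and 2 and -0.021 without SUDEP 1, and Hsp90ab1 0.068 without control 3 and 0.0059 without SUDEP 2. Of all tested probes, 32 passed (18 higher in SUDEP); the count was 50 with median scaling, 21 with scaling by the 7 genes (9 higher), 10 without scaling (4 higher), 240 with normexp (69 higher), 6 with no filter, 57 if only probes above background on 8 arrays were kept, 73 if the variance was trended and robust, 21 if arrays were weighted, 0 by the unmoderated test (3723 at an unadjusted p under 0.05), 8 with the covariate, 2 without control 1 and 2 together, and 5 to 62 with 1 array left out. With the replicate block 13 passed, and 0 of the 7 genes. For each, the cause was not tested. The deposited table was run for the count only (46), as it lacks the 7 genes.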
